A study of Mus musculus with 30 samples.

Results

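The STAT transcription factors examined were the 6 mouse genes Stat2, Stat3, Stat4, Stat5a, Stat5b and Stat6. They were taken as a named list, matched by gene symbol to the Ensembl identifiers of the deposited counts, and make up 6 of the 49315 genes counted. Their transcripts were measured by bulk RNA sequencing of polyA RNA in 24 libraries of cultured tumor cells. The cells were B16F10, a mouse melanoma line, and 6694c2, a mouse pancreatic ductal adenocarcinoma (PDAC) line, and the labels give C57BL/6 as the genotype of both. Each line was cultured for 24 h with vehicle alone, with 100 ng/mL of IFNγ, with 1000 U/mL of IFNβ or with 225 μg/mL of a STING agonist. Each of these 8 groups held 3 libraries. No source used here says that the 3 libraries came from separate cultures, so p-values measure the spread between these libraries, which may be technical. IFNγ is the type II interferon, IFNβ is a type I interferon, and STING is the sensor of cyclic dinucleotides through which cytosolic DNA induces type I interferon.

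STAT proteins wait in the cytoplasm until a cytokine receptor activates its bound JAK kinases. The kinases phosphorylate the STAT on a tyrosine, the STATs pair, and the pair enters the nucleus and binds DNA. Different receptors use different members. Type I interferon works through STAT2, which forms the ISGF3 complex with IRF9 and a partner STAT. IL-6 family cytokines work through STAT3, IL-12 through STAT4, growth hormone, prolactin and IL-2 through STAT5A and STAT5B, and IL-4 and IL-13 through STAT6. RNA sequencing shows how much transcript of each STAT the cells held. It does not show the phosphorylated protein.

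The libraries held between 15543131 and 32266795 reads on genes. Levels are given as CPM, the counts scaled to library size with TMM factors over the 24 libraries. Genes with at least 10 reads over the 24 libraries were tested with edgeR's quasi-likelihood test, which left 21138 genes, and all 6 Stat genes passed. Genes were called at a Benjamini-Hochberg adjusted p under 0.05 over all genes tested. The summed level of 7 melanocyte markers was 15978 to 19985 CPM in the 12 B16F10 libraries, and that of 7 epithelial markers was 11990 to 13976 CPM in the 12 6694c2 libraries. Each line also held a low level of the markers of the other. The B16F10 STING agonist libraries stood at 0.833% to 1.13% of the 6694c2 level over 5 epithelial markers, against 0.121% to 0.162% in the B16F10 vehicle libraries. The 6694c2 vehicle libraries stood at 0.441% to 0.450% of the B16F10 level over 7 melanocyte markers, against 0.1001% to 0.112% in the 6694c2 STING agonist libraries.

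Stat2 encodes the STAT that is specific to the response to type I and type III interferon. The gene (ENSMUSG00000040033) lies on chromosome 10 of GRCm38 from 128270576 to 128292849 on the plus strand. Stat2 was the member whose transcript changed most with either interferon. In B16F10 cells its level was 6.98, 7.90 and 9.54 CPM with vehicle. It was 109.5, 117 and 114 CPM with IFNγ. It was 146, 141 and 151 CPM with IFNβ. The 3 groups did not overlap, and every interferon library stood more than 10 times above every vehicle library. Against vehicle, Stat2 rose 13.8-fold with IFNγ (log2 fold change 3.78, standard error 0.0797, adjusted p = 9.44e-166). With IFNβ it rose 17.9-fold (log2 fold change 4.16, standard error 0.0795, adjusted p = 2.79e-180). In bulk samples, a change in every cell and a larger change in a share of the cells cannot be told apart.

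In 6694c2 cells Stat2 started lower. Its level was 3.03, 3.46 and 3.96 CPM with vehicle. It was 38.3, 44.7 and 39.0 CPM with IFNγ. It was 94.5, 87.4 and 83.5 CPM with IFNβ. Here too the 3 groups stood apart. Stat2 rose 11.8-fold with IFNγ (log2 fold change 3.56, standard error 0.120, adjusted p = 1.02e-26) and 26.01-fold with IFNβ (log2 fold change 4.70, standard error 0.117, adjusted p = 7.80e-32). IFNβ gave more Stat2 than IFNγ in each line. The difference was 0.38 on the log2 scale in B16F10 (adjusted p = 7.52e-08) and 1.14 in 6694c2 cells (adjusted p = 2.03e-14).

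The promoters of the members were read from RefSeq windows on GRCm38.p6 that run from 250 bases before to 50 bases after a transcript start. There were 9 such windows for the 6 members. They were searched on both strands for GAAANNGAA, the core of the interferon-stimulated response element that ISGF3 binds, and for TTCNNNGAA, the gamma-activated site that STAT pairs bind. The response element core was found in 1 window of Stat2 and 1 of the 2 windows of Stat4. The gamma-activated site was in 0 of the 9 windows. Among all 32851 promoter windows, 8.56% held the response element core and 8.30% the gamma-activated site. In the Stat2 window the match lies 221 bases before the start and reads TTCAGTTTC, its reverse strand carrying the motif. The matches are descriptions of these letters and not measured binding. The Stat2 and Stat4 windows are shown because they hold the core, and the Stat3 window because Stat3 also rose with either interferon while its window holds neither motif. Capitals mark the matches. The windows are chr10:128270248-128270547 (plus strand), chr11:100939491-100939790 (minus strand) and chr1:52007990-52008289 (plus strand), in this order, each printed 5′ to 3′.
Stat2: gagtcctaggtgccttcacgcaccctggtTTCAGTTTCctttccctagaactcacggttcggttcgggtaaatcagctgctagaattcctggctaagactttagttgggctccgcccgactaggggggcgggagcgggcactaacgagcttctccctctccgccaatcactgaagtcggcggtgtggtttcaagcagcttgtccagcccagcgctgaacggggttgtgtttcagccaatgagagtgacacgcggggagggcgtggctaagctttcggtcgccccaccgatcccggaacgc
Stat3: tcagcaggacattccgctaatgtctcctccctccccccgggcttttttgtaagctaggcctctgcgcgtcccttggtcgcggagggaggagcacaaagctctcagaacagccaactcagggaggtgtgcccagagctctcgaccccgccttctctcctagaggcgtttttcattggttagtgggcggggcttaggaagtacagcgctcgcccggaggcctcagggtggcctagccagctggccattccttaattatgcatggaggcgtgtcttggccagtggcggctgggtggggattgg
Stat4: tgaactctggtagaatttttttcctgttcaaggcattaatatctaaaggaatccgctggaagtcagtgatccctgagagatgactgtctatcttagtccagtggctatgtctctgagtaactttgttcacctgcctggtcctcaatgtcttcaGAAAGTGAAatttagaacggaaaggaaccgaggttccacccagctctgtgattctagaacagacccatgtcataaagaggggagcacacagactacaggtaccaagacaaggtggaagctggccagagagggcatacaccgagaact

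**Figure D1:**
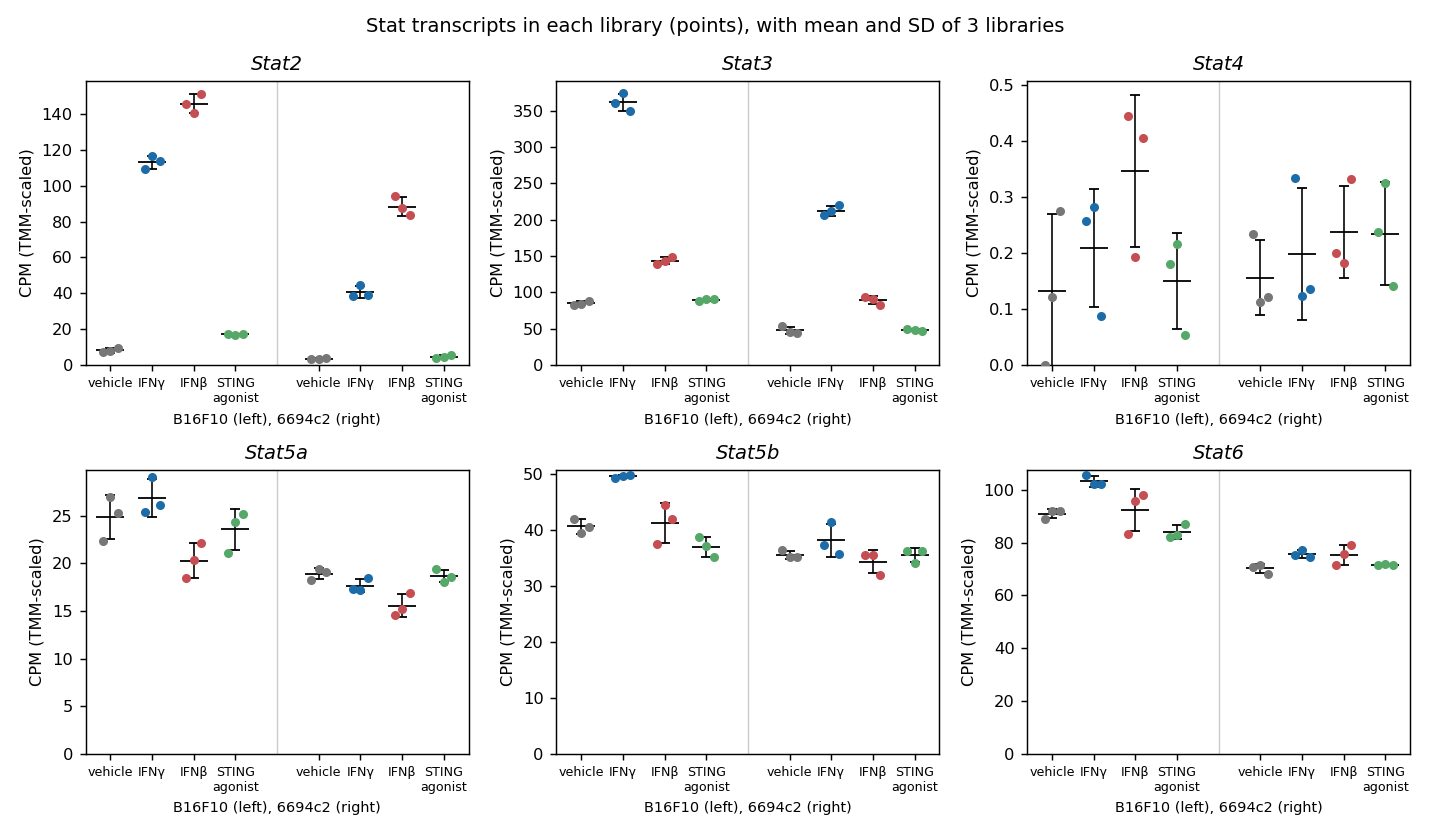
The level of each Stat transcript in CPM (linear axis from 0, a separate scale for each gene) is plotted for each library (points), with the mean (long bar) and SD (error bar) of 3 libraries, by treatment in B16F10 (left of each panel) and 6694c2 (right). Stat2 and Stat3 stood apart with IFNγ and IFNβ from vehicle in both lines, while Stat5a, Stat5b and Stat6 stayed within a narrow range and Stat4 was below 0.5 CPM in every library.

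Stat3 is the STAT of IL-6 family cytokines and of acute phase responses. The gene (ENSMUSG00000004040) lies on chromosome 11 from 100885098 to 100939540 on the minus strand. Its end overlaps with that of Stat5a on the other strand by 72 exonic bases, 0.76% of those of Stat3 and 1.01% of those of Stat5a, and reads there could be counted for either gene if strand was not used. Unlike Stat2, Stat3 was well expressed before treatment and rose more with IFNγ than with IFNβ. In B16F10 cells its level was 82.7, 83.3 and 87.9 CPM with vehicle. It was 360.3, 375 and 350.0 CPM with IFNγ. It was 139, 143 and 149 CPM with IFNβ. The 3 groups did not overlap. Stat3 rose 4.26-fold with IFNγ (log2 fold change 2.09, standard error 0.0578, adjusted p = 4.17e-127) and 1.71-fold with IFNβ (log2 fold change 0.77, standard error 0.0572, adjusted p = 1.24e-32).

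In 6694c2 cells Stat3 was at 52.9, 45.3 and 44.2 CPM with vehicle. It was at 206, 212 and 219.6 CPM with IFNγ. It was at 93.8, 90.9 and 82.5 CPM with IFNβ. The order of the groups was that of B16F10 cells, again with no overlap. Stat3 rose 4.52-fold with IFNγ (log2 fold change 2.18, standard error 0.0755, adjusted p = 2.79e-26) and 1.92-fold with IFNβ (log2 fold change 0.94, standard error 0.0746, adjusted p = 9.97e-14). Set directly against IFNγ, Stat3 with IFNβ was lower by 1.32 on the log2 scale in B16F10 (log2 fold change -1.32, adjusted p = 5.72e-76) and by 1.23 in 6694c2 cells (log2 fold change -1.23, adjusted p = 3.92e-18). Stat2 and Stat3 therefore ranked IFNβ and IFNγ in opposite order, and did so in both lines.

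That opposite order changed the balance of the pair within a library. The ratio of Stat3 to Stat2 was taken per length of exon (CPM per kb), a comparison chosen after the values were seen. With vehicle, the ratio in B16F10 cells was 4.86 ± 0.607 (SD, n = 3). The ratio was 1.47 ± 0.0491 with IFNγ and 0.455 ± 0.0150 with IFNβ. The 6694c2 ratio was 6.41 ± 1.49 with vehicle, 2.42 ± 0.213 with IFNγ and 0.465 ± 0.0133 with IFNβ. Per length, Stat3 was thus the higher of the pair in every vehicle, IFNγ and STING agonist library, and Stat2 in every IFNβ library. In CPM, not divided by length, the pair was near equal with IFNβ. Stat2 and Stat3 had means of 145.9 and 143.8 CPM in B16F10 and 88.5 and 89.1 CPM in 6694c2 cells. That the IFNβ ratio lies below 1 therefore rests on the annotated exonic lengths, 4397 bases for Stat2 and 9527 for Stat3. Over both lines the log2 ratio fell by 3.59 with IFNβ against vehicle, by 1.55 with IFNγ against vehicle and by 2.04 with IFNβ against IFNγ. For each of these 3 differences the exact permutation test that exchanged labels within a line gave p = 0.005, two-sided, the smallest that 400 assignments allow (0.0133 with Benjamini-Hochberg adjustment over the 8 ratio tests run). The groups of both genes had been seen to stand apart before the pair was chosen, so this p adds no support beyond the results of each gene. The adjustment does not cover that choice. With STING agonist the ratio was 2.44 ± 0.0891 in B16F10 and 5.10 ± 1.02 in 6694c2 cells. The log2 ratio fell by 0.66 over both lines (exact permutation test, p = 0.015, adjusted p = 0.0240). The within-line values were -0.99 in B16F10 (exact permutation test, p = 0.1) and -0.33 in 6694c2 cells (exact permutation test, p = 0.3). In 6694c2 cells the STING agonist ratios overlapped with those of vehicle, so a fall in that line is not shown. Within a single line, 3 libraries against 3 cannot go below p = 0.1 in an exact test.

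**Figure D2:**
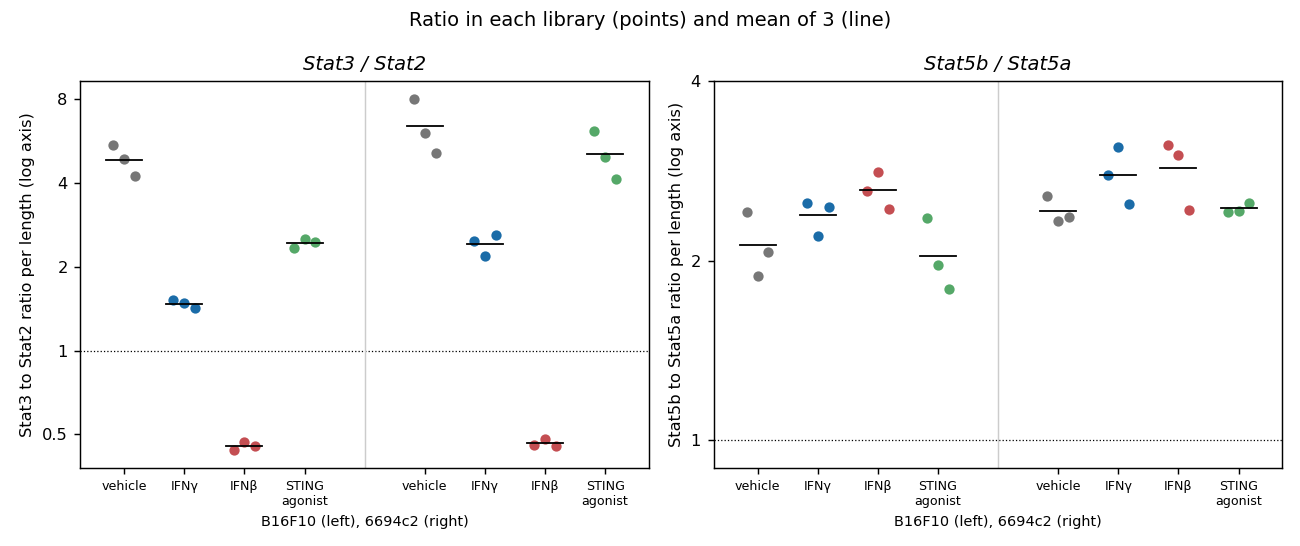
The ratio of Stat3 to Stat2 (left panel) and of Stat5b to Stat5a (right panel), each per kb of exon and on a log axis, is plotted for each library (points) with the mean of 3 libraries (line). The 6 IFNβ libraries lie between 0.440 and 0.480 for Stat3 to Stat2, below the dotted line at 1, and all other libraries lie above it.

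Stat5a and Stat5b encode a pair of closely related STATs that respond to growth hormone, prolactin and IL-2. Stat5a (ENSMUSG00000004043) lies on chromosome 11 from 100859351 to 100885169 on the plus strand, and Stat5b (ENSMUSG00000020919) from 100780731 to 100850724 on the minus strand. The genes are similar enough to matter for read counting. Of all 100-base windows of their transcripts, 3.44% in Stat5a and 4.79% in Stat5b occurred identically in the other gene. No 50-base window was shared between any other pair of members. The longest identical stretch of the coding sequences was 324 bases, and it spans 3 exons in each gene, at chr11:100874023-100874983 (plus strand) in Stat5a and chr11:100797741-100798701 (minus strand) in Stat5b. The first 150 bases of that stretch, from GENCODE M21, are shown because a read from them could come from either gene.
Stat5a and Stat5b: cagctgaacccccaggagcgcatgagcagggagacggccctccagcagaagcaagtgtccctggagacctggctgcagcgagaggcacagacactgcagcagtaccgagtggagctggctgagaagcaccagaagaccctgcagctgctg

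The interferons moved the Stat5 transcripts little. Stat5a was at 22.4, 26.95 and 25.3 CPM with vehicle in B16F10 cells, at 25.4, 29.1 and 26.1 CPM with IFNγ, and at 18.4, 20.3 and 22.2 CPM with IFNβ. The IFNβ libraries lay below the vehicle libraries without overlap, and the IFNγ libraries overlapped with them. Stat5a fell by 0.29 on the log2 scale with IFNβ in B16F10 cells (log2 fold change -0.29, standard error 0.0876, adjusted p = 0.00663). The call was lost without vehicle replicate 2 (adjusted p = 0.0988), without IFNβ replicate 1 (adjusted p = 0.0581) and when the reads of Stat5a and Stat5b were summed (log2 fold change -0.081, adjusted p = 0.437). In 6694c2 cells the levels were 18.3, 19.4 and 19.1 CPM with vehicle and 14.6, 15.2 and 16.9 CPM with IFNβ. This difference, -0.25 on the log2 scale, was not called (95% interval -0.44 to -0.054, adjusted p = 0.0682). It passed the threshold under 5 of 16 alternatives, including DESeq2 (adjusted p = 0.0352) and all 24 libraries in the fit (adjusted p = 0.0290).

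In B16F10 cells Stat5b was called with IFNγ and Stat5a was not (Stat5a log2 fold change 0.10, 95% interval -0.065 to 0.27). The log2 ratio of Stat5b to Stat5a was higher there by 0.17 with IFNγ (exact permutation test, p = 0.2). A difference between the partners with IFNγ is therefore not shown. The level of Stat5b was 42.0, 39.4 and 40.6 CPM with vehicle, 49.3, 49.7 and 49.9 CPM with IFNγ and 37.4, 44.5 and 42.0 CPM with IFNβ. All 3 IFNγ libraries stood above the others. Stat5b rose 1.22-fold with IFNγ in B16F10 cells (log2 fold change 0.29, standard error 0.0725, adjusted p = 0.000798), a call that held under all 16 alternatives. Its log2 fold change with IFNβ was 0.033 in B16F10 cells (95% interval -0.11 to 0.18). In 6694c2 cells the libraries of all groups ranged from 31.9 to 41.5 CPM. There the log2 fold changes were 0.11 with IFNγ (95% interval -0.053 to 0.28) and -0.019 with IFNβ (95% interval -0.18 to 0.14), and neither was called. Per length, Stat5b exceeded Stat5a in every library, with ratios from 1.79 to 3.12. The log2 ratio of Stat5b to Stat5a was higher with IFNβ than with vehicle by 0.27 over both lines (exact permutation test as above, p = 0.015, adjusted p = 0.0240 over the 8 ratio tests). With IFNγ it was higher by 0.19 (exact permutation test, p = 0.04, adjusted p = 0.0533), which did not pass after adjustment.

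Stat6 carries the response to IL-4 and IL-13. The gene (ENSMUSG00000002147) lies on chromosome 10 from 127642986 to 127660957 on the plus strand. Per length it was the most abundant member with vehicle, at 48.9% ± 0.514 of the summed Stat transcripts in B16F10 and 51.7% ± 0.801 in 6694c2 cells (SD, n = 3 each). Its level stayed within a narrow range. In B16F10 cells Stat6 was at 89.1, 91.9 and 92.0 CPM with vehicle, at 106, 102 and 102 CPM with IFNγ and at 83.2, 95.6 and 98.3 CPM with IFNβ. The IFNγ libraries lay above the vehicle libraries, and the IFNβ libraries lay on both sides of them. Stat6 rose 1.13-fold with IFNγ in B16F10 cells (log2 fold change 0.18, standard error 0.0609, adjusted p = 0.0169). This call was lost with upper quartile scaling (adjusted p = 0.184), without vehicle replicate 1 (adjusted p = 0.0919) and without IFNγ replicate 1 (adjusted p = 0.0727). In 6694c2 cells Stat6 ranged from 68.2 to 79.1 CPM over all 12 libraries, with log2 fold changes of 0.12 with IFNγ (95% interval -0.016 to 0.26) and 0.14 with IFNβ (95% interval -0.0030 to 0.27), neither called.

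Stat4, which mediates IL-12 signalling in T cells and natural killer cells, was near the floor of detection. The gene (ENSMUSG00000062939) lies on chromosome 1 from 51987148 to 52107189 on the plus strand. It had 0 to 11 reads per library and 118 reads over the 24 libraries. Its level was 0 to 0.444 CPM, with no reads in 1 library, and neighbouring groups in the order of the levels all overlapped. A change was not detectable at this depth. The 95% interval of the log2 fold change with IFNβ ran from -0.22 to 2.90 in B16F10 and from -0.93 to 2.24 in 6694c2 cells. Of the exonic bases of Stat4, 26.7% are also exonic in Gm28177 on the same strand, so part of these few reads may belong to that transcript. Of 7 T-cell markers, 1 had a mean of 1 CPM or more in every group, and their summed level was at most 6.07 CPM. Cd3e, which encodes a chain of the T-cell receptor complex, was the marker most often without reads. It had none in any group but IFNβ-treated B16F10 cells.

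Stacked per length, the 6 members together made 42.3 ± 0.996 CPM per kb with vehicle in B16F10 cells, 100.0 ± 1.95 with IFNγ and 79.7 ± 3.55 with IFNβ (SD, n = 3 each). In 6694c2 cells the sum was 30.8 ± 0.725 with vehicle, 58.2 ± 1.60 with IFNγ and 55.02 ± 1.10 with IFNβ. Stat2 went from 4.37% ± 0.595 of that sum with vehicle to 25.8% ± 0.609 with IFNγ and 41.7% ± 1.73 with IFNβ in B16F10 cells. The share in 6694c2 cells went from 2.58% ± 0.404 to 15.9% ± 0.946 and 36.6% ± 1.59. Stat3 held 37.96% ± 0.597 of the sum with IFNγ in B16F10 and 38.3% ± 1.35 in 6694c2 cells, against 21.02% ± 0.356 and 16.1% ± 1.27 with vehicle. The leading member per length was therefore Stat6 with vehicle, Stat3 with IFNγ and Stat2 with IFNβ, in both lines. The shares are a description, and no test was run on them.

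**Figure D3:**
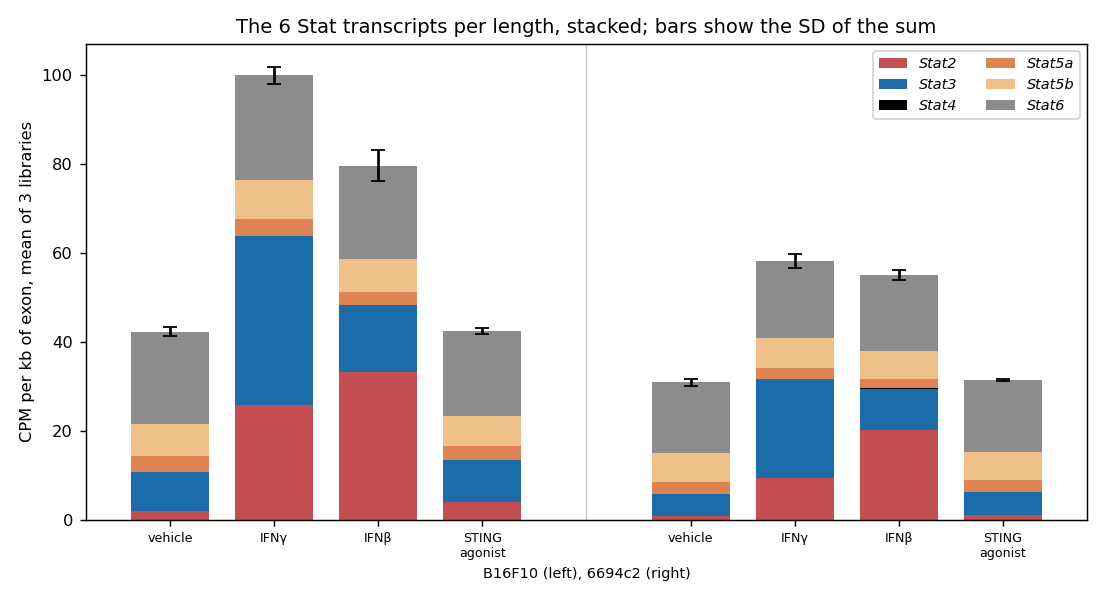
Stacked bars show the level of the 6 Stat transcripts in CPM per kb of exon (linear axis from 0), as means of 3 libraries, by treatment in B16F10 (left) and 6694c2 (right), and the error bars show the SD of the sum. The tallest segment is Stat6 with vehicle and STING agonist, Stat3 with IFNγ and Stat2 with IFNβ in both lines.

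Counted by comparison, IFNγ against vehicle called 4 of the 6 members higher and 0 lower in B16F10 cells (Stat2, Stat3, Stat5b and Stat6), where 22.8% of all genes tested were called. In 6694c2 cells it called 2 higher and 0 lower (Stat2 and Stat3), where 13.5% of all genes were called. IFNβ against vehicle called 2 higher (Stat2 and Stat3) and 1 lower (Stat5a) in B16F10 cells, where 24.0% were called, and 2 higher and 0 lower in 6694c2 cells, where 18.2% were called. With IFNβ set against IFNγ, 1 member was higher (Stat2) and 3 were lower (Stat3, Stat5a and Stat5b) in B16F10 cells, against 14.5% of all genes. In 6694c2 cells 1 was higher (Stat2) and 1 lower (Stat3), against 13.9% of all genes. With IFNβ against IFNγ in B16F10 cells, Stat5a was lower by 0.39 on the log2 scale (log2 fold change -0.39, adjusted p = 0.000154) and Stat5b by 0.25 (log2 fold change -0.25, adjusted p = 0.00558). The Stat5b call was lost without IFNβ replicate 1 (adjusted p = 0.0624). Stat6, at -0.15 and not called there (adjusted p = 0.0795), passed under 4 of 16 alternatives, DESeq2 among them (adjusted p = 0.0301).

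**Figure D4:**
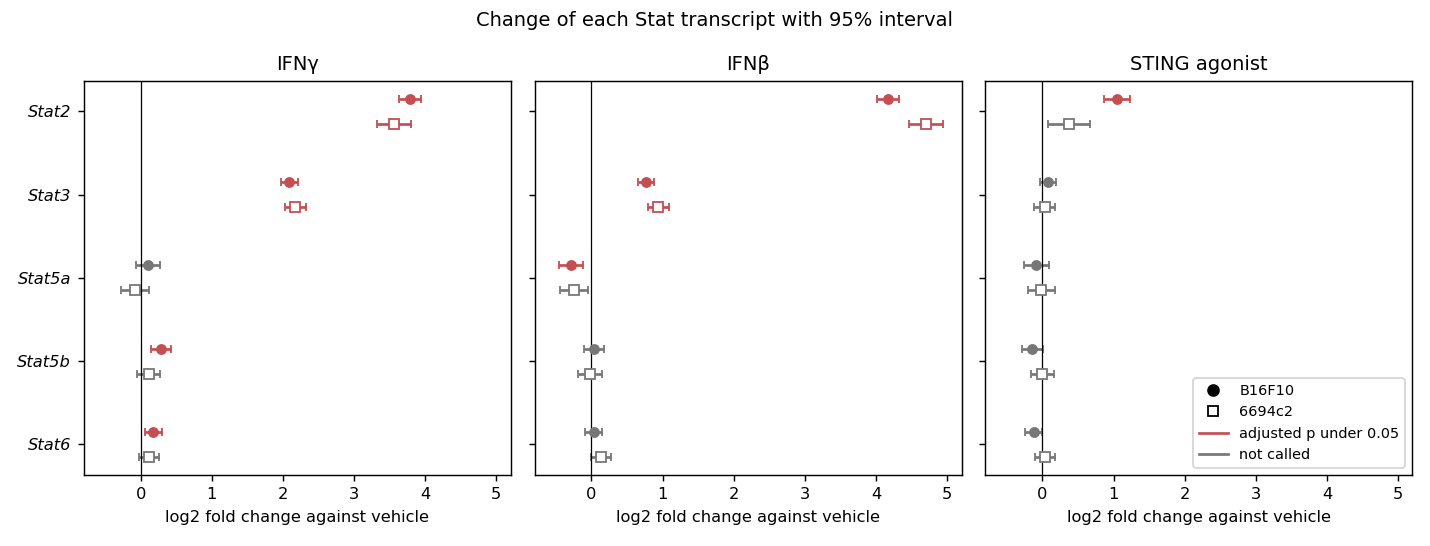
The log2 fold change against vehicle is plotted with its 95% interval for 5 members (Stat4, with few reads, is left out), with IFNγ, IFNβ and STING agonist in 3 panels; filled circles are B16F10, open squares 6694c2, and red marks an adjusted p under 0.05. Stat2 and Stat3 lie to the right of 0 with either interferon in both lines, and with STING agonist only Stat2 in B16F10 cells was called, at 1.04.

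The STING agonist was compared with vehicle to see how the tumor cells themselves responded to it. In B16F10 cells it called 1 of the 6 members, Stat2, where 3.46% of all genes were called. Stat2 was at 17.3, 16.7 and 17.03 CPM with STING agonist, and the vehicle libraries reached at most 9.54 CPM. Stat2 rose 2.06-fold (log2 fold change 1.04, standard error 0.0921, adjusted p = 1.99e-23), a call that held under all 16 alternatives. The 3 STING agonist libraries also held the higher share of 6694c2 marker transcripts given above. Their mean share of 0.979%, at the highest group mean of Stat2 in 6694c2 cells, would amount to 0.866 CPM of Stat2, against 0.131 CPM by the same estimate with vehicle. With both taken off, the log2 ratio of the means was 1.01 in place of 1.06. The other members were not called with STING agonist in B16F10 cells. The 95% interval of the log2 fold change was -0.037 to 0.19 for Stat3, -0.26 to 0.091 for Stat5a, -0.29 to 0.0057 for Stat5b and -0.24 to -0.00042 for Stat6. Stat6 had an unadjusted p of 0.0492 and an adjusted p of 0.382.

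In 6694c2 cells the STING agonist called 0 of the 6 members by edgeR and 0 by DESeq2, with 1, Stat2, at an unadjusted p under 0.05, where 0.36% of all genes were called. Stat2 was at 3.70, 4.50 and 5.24 CPM with STING agonist, a range that overlaps with the vehicle libraries. Its log2 fold change was 0.37 (95% interval 0.076 to 0.67, adjusted p = 0.467 by edgeR). The vehicle libraries of this line held the higher share of melanocyte transcripts. At the highest group mean of Stat2 in B16F10 cells, the mean shares would amount to 0.650 CPM of Stat2 with vehicle and 0.157 CPM with STING agonist, and with them taken off the log2 ratio of the means was 0.61 in place of 0.36. The 95% intervals of the other abundant members all held 0, from -0.12 to 0.18 for Stat3, -0.21 to 0.18 for Stat5a, -0.16 to 0.16 for Stat5b and -0.11 to 0.17 for Stat6.

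Between the lines at baseline, 5 of the 6 members were lower in 6694c2 than in B16F10 vehicle cells and 0 were higher, where 58.0% of all genes were called. Stat2 was lower by 1.23 on the log2 scale (log2 fold change -1.23, standard error 0.137, adjusted p = 2.08e-10), and Stat3 by 0.83 (log2 fold change -0.83, adjusted p = 1.42e-14). Stat5a, at -0.39 (adjusted p = 0.000281), and Stat6, at -0.37 (adjusted p = 1.58e-06), were lower by smaller steps. Stat5b was lower by 0.19 (log2 fold change -0.19, adjusted p = 0.0256), and this call was lost without a low-count filter (adjusted p = 0.0549), with a replicate block (adjusted p = 0.169) and without 6694c2 vehicle replicate 2 (adjusted p = 0.0675) or 3 (adjusted p = 0.0637). Line and any batch in which a line was processed cannot be told apart.

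The treatment effects of the members were set against each other between the lines as an interaction over all 24 libraries. For IFNγ, 0 of 6 members differed by edgeR and 0 by DESeq2, with 0 at an unadjusted p under 0.05, where 9.47% of all genes did. The 95% interval of the difference, B16F10 minus 6694c2 on the log2 scale, was -0.085 to 0.58 for Stat2 and -0.25 to 0.11 for Stat3. For IFNβ, 1 member differed, where 12.1% of all genes did. The IFNβ effect on Stat2 was smaller in B16F10 cells by 0.51 (log2 difference -0.51, standard error 0.159, adjusted p = 0.0263). This call was lost without B16F10 vehicle replicate 3 (adjusted p = 0.0849), 6694c2 vehicle replicate 1 (adjusted p = 0.123) or 2 (adjusted p = 0.0633), or 6694c2 IFNβ replicate 1 (adjusted p = 0.0554). For the STING agonist, 1 member differed, where 2.12% of all genes did. The effect on Stat2 was larger in B16F10 cells by 0.68 (log2 difference 0.68, standard error 0.183, adjusted p = 0.0352). Leaving out any of 9 of the 12 vehicle and STING agonist libraries ended that call, with an adjusted p of 0.0532 to 0.173, while the difference stayed between 0.57 and 0.81 with any of the 12 left out. With the mean shares of the other line taken off, at the highest group mean of Stat2 in that line, the difference between the lines in the log2 ratio of means was 0.40 in place of 0.70. That level is the one with IFNβ, so 0.40 is an extreme case and not a corrected value.

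The other genes of the pathway were taken from lists chosen with earlier results of these data known, so their counts are descriptions. They are to be read beside the share of all genes called in the same comparison, which in B16F10 cells was 22.8% with IFNγ, 24.0% with IFNβ and 3.46% with STING agonist, and in 6694c2 cells 13.5%, 18.2% and 0.36%. Irf9, the DNA-binding partner of STAT2 in ISGF3, was called higher in the same comparisons with vehicle as Stat2, but by different amounts. In B16F10 cells it was at 43.1 ± 1.10 CPM with vehicle, 78.9 ± 2.07 with IFNγ, 107 ± 3.67 with IFNβ and 56.6 ± 4.22 (SD, n = 3 each) with STING agonist, and all 3 treatments were called (log2 fold changes 0.87, 1.32 and 0.39). In 6694c2 cells it was at 5.10 ± 0.231 with vehicle, 55.7 ± 2.04 with IFNγ, 101 ± 4.80 with IFNβ and 5.63 ± 0.572 with STING agonist. There Irf9 rose by 3.46 on the log2 scale with IFNγ and by 4.35 with IFNβ, and its value of 0.15 with STING agonist was not called (adjusted p = 0.809).

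The list of ISGF3 targets holds 12 interferon-stimulated genes, among them Irf9 itself. In B16F10 cells 11 rose with IFNγ (median log2 fold change 2.32), 12 with IFNβ (median 4.002) and 10 with STING agonist (median 1.06), and 0 fell in each. In 6694c2 cells 11 rose with IFNγ (median 3.52), 12 with IFNβ (median 8.46) and 3 with STING agonist (median 0.49), and 0 fell. The median over all genes tested lay between 0 and 0.019 in these 6 comparisons. All 12 were higher with IFNβ than with IFNγ in either line, by a median of 1.07 in B16F10 and 4.23 in 6694c2 cells. In B16F10 cells the smallest p among the genes of all lists belonged to the antiviral genes Rsad2 and Ifit1 and the ubiquitin-like modifier Isg15 with IFNγ (log2 fold changes 3.10, 3.01 and 2.86). With IFNβ they belonged to Rsad2 (4.16), Ifit1 (4.13) and Usp18, which removes ISG15 from proteins and dampens interferon signalling (4.12). With STING agonist they belonged to Ifit1 (2.17), Isg15 (1.93) and Rsad2 (1.58). In 6694c2 cells they were Irf7, the interferon regulatory factor that amplifies type I interferon production (6.34), Isg15 (4.89) and Socs1 (4.98) with IFNγ, and Ifit1 (8.77), Irf7 (10.01) and the oligoadenylate synthetase Oas1a (8.79) with IFNβ. With STING agonist the 3 called genes of all lists there were Irf7 (1.62), Ifi44 (1.87) and Ifit1 (0.62), and the Ifit1 call (adjusted p = 0.0339) was lost under 7 of 16 alternatives.

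Of the 17 STAT3 targets, 6 rose and 5 fell with IFNγ in B16F10 cells, with a median log2 fold change of -0.018. With IFNβ 4 rose and 4 fell (median -0.0063), and with STING agonist 0 rose and 4 fell (median -0.17). In 6694c2 cells 11 rose and 1 fell with IFNγ (median 0.30), where 13.5% of all genes were called, 12 rose and 0 fell with IFNβ (median 0.40), where 18.2% were, and 0 were called with STING agonist. Among the genes that fell in B16F10 cells, Myc, the growth regulator, fell by 0.77 with IFNγ, 0.77 with IFNβ and 0.43 with STING agonist on the log2 scale, and Ccnd1, which encodes cyclin D1, by 0.47, 0.44 and 0.31. Birc5, an inhibitor of apoptosis that is made in dividing cells, fell by 0.54 with IFNβ. Junb fell by 0.34 with STING agonist, a call (adjusted p = 0.0321) that was lost under 8 of 16 alternatives. In 6694c2 cells the mean of Myc went from 120.5 CPM in vehicle libraries to 137.6 under IFNγ and 215.4 under IFNβ. That of Ccnd1 went from 808 to 986 and 861 CPM, the vehicle and IFNβ libraries overlapping. Under the STING agonist the 6694c2 means were 137.4 CPM for Myc, 786 for Ccnd1 and 220 for Junb, whose vehicle mean was 194. Birc5 averaged 206 CPM in vehicle and 208 in IFNβ libraries of that line. Fos fell by 0.67 with IFNγ in 6694c2 cells. Several of these genes have other regulators besides STAT3, so the list does not measure STAT3 activity.

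Of 9 STAT5 targets, 1 rose and 3 fell with IFNγ and 1 rose and 1 fell with IFNβ in B16F10 cells (medians -0.018 and 0.0060). In 6694c2 cells 5 rose and 1 fell with IFNγ and 3 rose and 0 fell with IFNβ (medians 0.30 and 0.39). Socs2, a brake on growth hormone signalling, fell by 2.05 with IFNγ in B16F10 cells. Cish, the classic STAT5-induced brake, was at 2.97 ± 0.137 CPM with vehicle and 2.05 ± 0.282 with IFNγ in B16F10 cells (log2 fold change -0.53, adjusted p = 0.0593, not called). In 6694c2 cells it was at 3.84 ± 0.635 with vehicle and 9.09 ± 1.03 with IFNγ (SD, n = 3 each), a rise of 1.26 on the log2 scale (adjusted p = 1.19e-07). Of 12 STAT6 targets 10 were tested. None of them was called with IFNγ, 2 rose with IFNβ and 3 with STING agonist in B16F10 cells, while in 6694c2 cells 2 rose and 1 fell with IFNγ and 0 were called with IFNβ or STING agonist. The 3 that rose with STING agonist in B16F10 cells, named after their values were seen, are all abundant in 6694c2 cells. Mrc1 went from 0.174 ± 0.115 to 1.81 ± 0.220 CPM, beside 223 ± 4.42 CPM in 6694c2 vehicle cells. Pparg went from 0.369 ± 0.223 to 1.47 ± 0.291 CPM, beside 145 ± 4.93 CPM there, and Klf4 from 1.67 ± 0.424 to 2.99 ± 0.155 CPM, beside 166 ± 5.75 CPM there (SD, n = 3 each). The B16F10 STING agonist libraries held 0.979% of the 6694c2 marker level on average and the vehicle libraries 0.148%, and the part of this share in the 3 values was not tested. With IFNβ in B16F10 cells the 2 that rose were Mrc1, at 1.25, 0.652 and 0 CPM in libraries with 0.468%, 0.334% and 0.141% of the 6694c2 marker level, and Irf4. Mrc1, the mannose receptor of macrophages, fell by 0.77 with IFNγ in 6694c2 cells. Of 7 STAT4 targets 4 were tested, and 1 rose with IFNγ in B16F10 and 3 in 6694c2 cells.

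The brakes on STAT signalling include the SOCS proteins, which are themselves STAT targets. Of 17 brakes, 5 rose and 2 fell with IFNγ and 6 rose and 1 fell with IFNβ in B16F10 cells. In 6694c2 cells 5 rose and 3 fell with IFNγ and 3 rose and 2 fell with IFNβ, the lower ones with IFNβ being the phosphatase Ptpn6 (log2 fold change -0.51) and Socs5 (-0.27, a call lost under 2 of 16 alternatives). Socs1, which blocks JAK kinases, was at 0.920 ± 0.266 CPM with vehicle, 24.7 ± 2.31 with IFNγ and 4.01 ± 0.675 with IFNβ in B16F10 cells (SD, n = 3 each). The 6694c2 cells held 2.65 ± 0.505, 82.9 ± 5.40 and 14.04 ± 3.20. Like Stat3, Socs1 was lower with IFNβ than with IFNγ, by 2.61 on the log2 scale in B16F10 and 2.55 in 6694c2 cells. Socs3, which restrains gp130 receptors, went from 4.36 ± 0.789 to 50.1 ± 2.17 CPM with IFNγ in B16F10 cells and from 36.6 ± 1.958 to 87.3 ± 7.65 in 6694c2 cells (log2 fold changes 3.52 and 1.27). With IFNβ it rose by 0.50 in B16F10 cells (adjusted p = 0.00113), a call lost under 1 of 16 alternatives, and by 0.66 in 6694c2 cells. The IFNγ effect on Socs3 was larger in B16F10 cells by 2.27 (adjusted p = 3.08e-16). All 4 JAK kinases were called higher with IFNγ in B16F10 cells, Jak2 by 1.03 and Jak1 by 0.81, and 2 in 6694c2 cells, Jak3 by 1.13 and Jak2 by 0.59. With IFNβ 3 of the 4 were called higher in each line, and with STING agonist 0 of the 4 kinases and 0 of the 18 tested receptors passed in either line.

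Of the 21 receptor genes 18 were tested, with the shares called among all genes as given for the lists above. With IFNγ 7 rose and 3 fell in B16F10 and 6 rose and 3 fell in 6694c2 cells, and with IFNβ 4 rose and 1 fell and 5 rose and 0 fell. Ifnar2, the signalling chain of the type I interferon receptor, rose with IFNγ by 0.86 in B16F10 and 1.08 in 6694c2 cells, and Ifngr2, of the IFNγ receptor, fell by 0.47 and 0.36. These receptor chains were chosen after their values were seen. The growth hormone receptor Ghr fell by 0.66 with IFNγ in 6694c2 cells. With IFNβ against IFNγ, the IL-12 receptor chain Il12rb1 was lower by 3.73 in B16F10 and 4.27 in 6694c2 cells, and Il18rap, a chain of the IL-18 receptor, by 2.40 in 6694c2 cells. The genes with the smallest p in the other direction were Usp18 (2.03), Mx1 (2.00) and Mx2 (2.04) in B16F10 and Ifit1 (5.13), Ifi44 (5.36) and Usp18 (4.76) in 6694c2 cells.

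**Figure D5:**
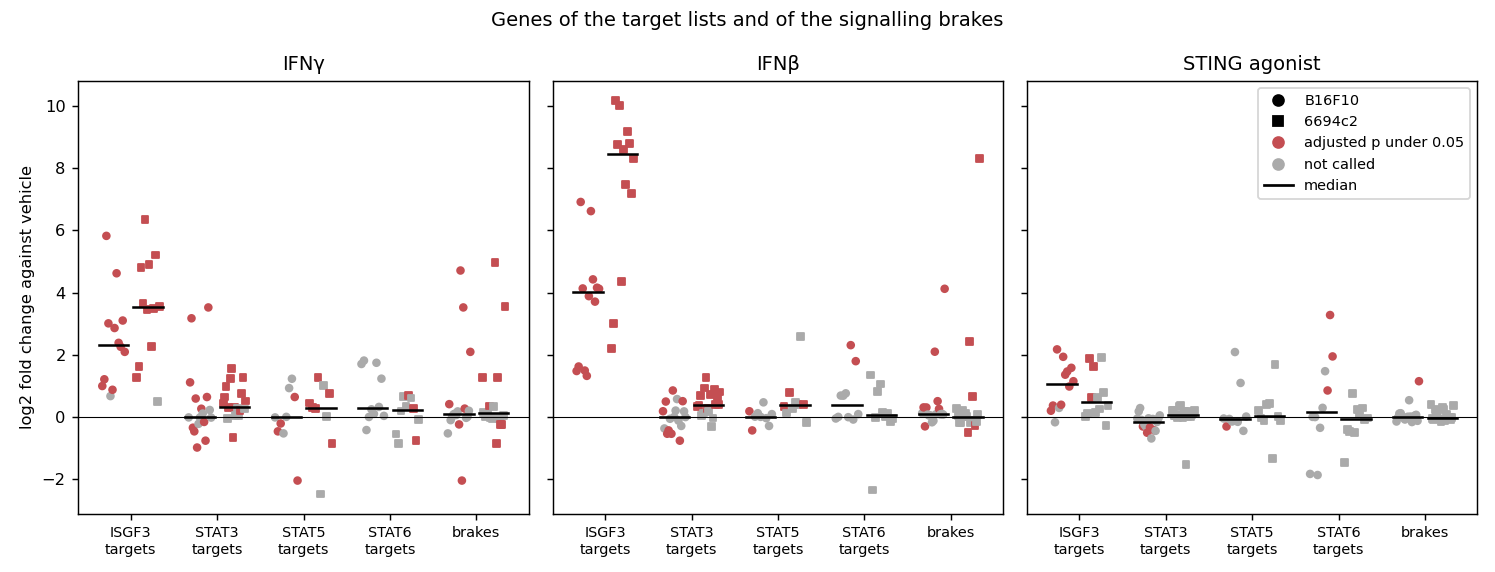
Each point is a gene of 5 lists (ISGF3, STAT3, STAT5 and STAT6 targets and signalling brakes), placed by its log2 fold change against vehicle with IFNγ, IFNβ or STING agonist; circles are B16F10, squares 6694c2, red marks an adjusted p under 0.05 and lines are medians. The ISGF3 targets have the highest median in each panel, 4.002 in B16F10 and 8.46 in 6694c2 cells with IFNβ, while the medians of the other lists lie between -0.17 and 0.40.

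Between the lines, the IFNβ effect was smaller in B16F10 cells for 11 of the 12 ISGF3 targets and larger for 0, against 12.1% of all genes called, with a median difference of -3.70, led by Ifit1 (-4.61), Isg15 (-4.69) and Oas1a (-5.05). At baseline 11 of the 12 were lower in 6694c2 cells, where 58.0% of all genes were called, with a median of -3.82, among them Ifit1 (-4.55), Usp18 (-4.96) and Isg15 (-4.69). These comparisons share the vehicle libraries, so a low baseline in 6694c2 cells enters both. For IFNγ, 7 were smaller and 2 larger in B16F10 cells, against 9.47% of all genes called. The genes named next had the smallest p among the called genes of all lists, not of the ISGF3 targets alone. With IFNγ, Irf9 (-2.58) and Oas1a (-2.93) were smaller in B16F10 cells, as was Il13ra1 (-1.70), a receptor chain for IL-13. Socs3, Bcl6 (2.20), a transcriptional repressor, and Rsad2 (2.62) were larger. For the STING agonist, 3 were larger in B16F10 cells and 1 smaller, against 2.12% of all genes called. Among the genes of all lists, Ifit1 (1.56), Rsad2 (1.88) and Mrc1 (3.36) were larger, and Myc (-0.61), Junb (-0.52) and Ifi44 (-2.03) smaller. Of these, the Junb call was lost under 5 and the Ifi44 call under 8 of 20 alternatives. Mrc1 is abundant in 6694c2 cells, by 10.22 on the log2 scale above B16F10 with vehicle, as are Pparg (8.56) and Klf4 (6.65), and the B16F10 STING agonist libraries are those with the higher share of 6694c2 transcripts given above. The part of that share in the Mrc1 value was not tested. For IFNβ, among the genes of all lists, Pias3 (0.50), Mrc1 (1.961) and Fos (0.59) were larger in B16F10 cells. Each of these 3 calls was lost under at least 2 of 20 alternatives.

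The genes whose pattern was most like that of each member were found by Pearson's r of log2 CPM over the 24 libraries among 10461 genes. The mean of the vehicle libraries of its line was first taken off each value, so the baseline difference between the lines does not enter r. Stat genes and genes of low mean level in either line were left out of that search. The 24 libraries fall into 8 groups and 2 lines, so r describes shared differences between groups and carries no p. Nearest to Stat2 were the MHC class I genes H2-T22 (r = 0.992) and H2-D1 (r = 0.992) and Parp11 (r = 0.985). Nearest to Stat3 were Socs1 (r = 0.991), Idnk (r = 0.990) and Irf1 (r = 0.986), the latter an interferon regulatory factor. For the members that moved little the nearest genes were less close. They were Rexo2, Tceal9 and Limd2 for Stat5a (r = 0.812, 0.800 and 0.792), Bcl9, Zfp160 and Crkl for Stat5b (r = 0.884, 0.871 and 0.851), and Bag3, Ubb and Keap1 for Stat6 (r = 0.836, 0.830 and 0.828). For Stat4, with its few reads, r reached 0.747 with Ovca2, 0.722 with Wdr24 and 0.689 with Ctss, and these are no finding. Among the members themselves, Stat2 and Stat3 had an r of 0.752, and Stat2 and Stat5a of -0.461. Stat3 with Stat6 had 0.705 and Stat5b with Stat6 0.687.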

How the data were processed

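The 24 libraries were bulk RNA sequencing of cultured B16F10 and 6694c2 cells. The submitters' notes name fastqc 0.11.9, multiQC 1.5, cutadapt 1.14, STAR 2.7.9a, Rsubread and the mm10 build, and the strand setting of the counting is not given in the sources used here. The authors deposited raw counts of reads per Ensembl gene, 1 file per library, with no normalization. Gene symbols were matched by Ensembl identifier, and the starts, ends and strands given for the members are those of the deposited counts. GENCODE M21 held 49056 of the 49315 genes, and 91.4% of those had the same start, end and strand there. Of the members, only Stat2 had other ends in GENCODE M21. Another 6 samples, of single cells, were not analysed here.

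Counts were tested in R 4.3.3 with edgeR 4.0.16 (TMM factors, at least 10 reads over the 24 libraries, quasi-likelihood test, Benjamini-Hochberg threshold 0.05). Treatments were compared within a line over its 12 libraries, and lines over all 24. DESeq2 1.42.0, other scalings and filters, a robust fit, other sets of libraries, a replicate block, summed Stat5 reads and leaving out each library were alternatives. Levels and exact permutation tests were computed in Python 3.11.15 with pandas 2.3.3, and plots were made with matplotlib 3.10.9. The fits were also tested on simulated data. The pattern comparison used log2 CPM with a prior count of 2, less the mean of the vehicle libraries of the same line. Depths were 15543131 to 26399495 reads in B16F10 and 17450954 to 32266795 in 6694c2. The members and gene lists were chosen with earlier results of these data known. All members are named. From the lists of receptors, kinases, brakes and targets, up to 3 called genes per direction with the smallest p in each comparison are named, and the 3 genes most like each member. Irf9, Socs1, Socs3 and Cish are named as well, but not for every comparison. The ratios between members and the estimates of transcripts of the other line were added after the values were seen.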

Additional observations from a re-analysis of the deposited data

Results flagged for a closer look

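The effect of a treatment on Stat2 differed between the lines in 2 comparisons, by the interaction test over all 24 libraries (edgeR's quasi-likelihood test). With IFNβ the log2 fold change was smaller in B16F10 than in 6694c2 cells by 0.51 (log2 difference -0.51, 95% interval -0.84 to -0.19, adjusted p = 0.0263). With the STING agonist it was larger in B16F10 cells by 0.68 (log2 difference 0.68, 95% interval 0.31 to 1.05, adjusted p = 0.0352). Stat2 with vehicle was 8.14 ± 1.30 CPM in B16F10 and 3.49 ± 0.464 CPM in 6694c2 cells (SD, n = 3 each), and both comparisons use these libraries. The mean share of transcripts of the other line, at the highest group mean of Stat2 in that line, was also taken off the group means, with no test. That level is the one with IFNβ, so the values that follow are an extreme case and not corrected values. The log2 ratio of means with IFNβ was then 4.18 in B16F10 and 4.96 in 6694c2 cells, against 4.16 and 4.67 as measured, and the difference between the lines was -0.78 in place of -0.50. With the STING agonist it was 1.01 and 0.61, against 1.06 and 0.36, and the difference between the lines was 0.40 in place of 0.70. Groups of 3 libraries were not tested for outliers.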

How the results depend on the processing

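Of 72 results on single members, 25 were called. The calls of Stat2 and Stat3 against vehicle within a line held under every alternative run, and those that were lost or gained are given beside the values above, with 1 more, Stat5a with IFNγ in B16F10 cells, called when summed with Stat5b (log2 fold change 0.22, adjusted p = 0.00480). Without TMM factors, 31 of 48 group means of levels moved by more than 1 SD. Upper quartile scaling moved the share of called genes that were higher from 52.5% to 37.5% with IFNγ and from 53.2% to 43.1% with IFNβ in B16F10, and in 6694c2 cells from 58.2% to 39.6%, from 56.8% to 35.9% and, with STING agonist, from 56.6% to 44.1%. The number of genes called with STING agonist in B16F10 cells was 732. It was 1271 in a fit of only the 6 libraries compared, 459 with all 24 libraries and 415 to 568 with 1 library left out, with 437 without vehicle replicate 1, 477 without vehicle replicate 2 and 415 without STING agonist replicate 3. In 6694c2 cells it was 76, and 44 with the filterByExpr minimum, 155 with no filter, 132 with only the 6 libraries, and 42 to 105 with 1 left out, with 49 without vehicle replicate 3 or STING agonist replicate 3 and 42 without STING agonist replicate 1. The interaction for the STING agonist called 449 genes, and 743 by DESeq2. The interaction calls of members for IFNβ and for STING agonist were 0 to 1 with a library left out. The cause of these shifts was not tested.

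Libraries were not paired by replicate number in the main fits, and whether the numbers pair them was not tested. Deviations of same-numbered libraries from their group means correlated at -0.459 to 0.356 (median 0.047) in 6694c2 and -0.252 to 0.272 (median 0.077) in B16F10 cells, with 6 of 18 pairs over 0.1 in each. Differently numbered libraries correlated at -0.57 to 0.56 (median -0.02) in 6694c2 and -0.205 to 0.269 (median -0.037) in B16F10 cells. Of these 36 pairs in each line, 13 in 6694c2 and 8 in B16F10 cells were over 0.1. With a replicate block, 126 genes were called with STING agonist in 6694c2 cells, and Stat5b at baseline came to -0.16 on the log2 scale (adjusted p = 0.169). It changed no other call of a member, and 4 members were called at baseline.

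Values near 0, none past the threshold, changed sign. With upper quartile scaling the log2 fold change with IFNβ in B16F10 cells was -0.011 for Stat5b and -0.014 for Stat6, and the IFNβ interaction of Stat5a was 0.017. With summed Stat5 reads these were -0.081 for Stat5b and 0.041 for the interaction, and IFNγ in 6694c2 cells gave 0.048 for Stat5a. Stat5b with STING agonist in 6694c2 cells was -0.0079 with RLE factors, -0.018 with upper quartile factors, -0.0096 with filterByExpr, -0.0080 by DESeq2, -0.0030 with 6 libraries, -0.0027 with 24 libraries and -0.0052 when summed. Stat6 with IFNβ against IFNγ in 6694c2 cells was -0.0024 with RLE factors, -0.014 with upper quartile factors, -0.0057 with filterByExpr, -0.0022 by DESeq2 and -0.0070 with 24 libraries.

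With 1 library left out, values that changed sign ranged as follows. With IFNβ in B16F10 cells, Stat5b ranged from -0.030 to 0.093, Stat6 from -0.014 to 0.093 and Cish from -0.095 to 0.29. With STING agonist, Stat4 in B16F10 cells ranged from -0.38 to 1.17, and in 6694c2 cells Stat3 from -0.014 to 0.12, Stat5a from -0.042 to 0.0085 and Stat5b from -0.014 to 0.030. In 6694c2 cells Stat4 with IFNγ ranged from -0.22 to 0.71, Stat5b with IFNβ from -0.054 to 0.029 and Stat6 with IFNβ against IFNγ from -0.028 to 0.053. The interaction ranged from -0.27 to 1.27 for Stat4 with IFNγ, from -0.14 to 0.053 for Stat5a, -0.036 to 0.10 for Stat5b and -0.39 to 0.0038 for Cish with IFNβ, and from -0.027 to 0.11 for Stat3, -0.95 to 0.59 for Stat4 and -0.14 to 0.0022 for Stat5a with STING agonist. Stat4 at baseline ranged from -0.39 to 1.16. The log2 ratio of Stat5b to Stat5a ranged from -0.077 to 0.027 with STING agonist and, with no change of sign, from 0.15 to 0.23 with IFNγ.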
